A study of Mus musculus with 8 samples.

Results

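Paired receptors of the innate immune system come as closely related surface proteins with opposite signals. The inhibitory partner carries tyrosine motifs in its tail that recruit the phosphatases SHP-1 (Ptpn6) and SHP-2 (Ptpn11), and the activating partner has a short tail and signals through an adaptor such as DAP12 (Tyrobp) or the Fc receptor gamma chain (Fcer1g). On macrophages, neutrophils and their precursors these receptors set thresholds for phagocytosis and for inflammatory responses. Levels of 9 such genes were examined in sorted bone marrow progenitors: the inhibitory Sirpa, Pirb and Pilra, and the activating Sirpb1a, Sirpb1b, Sirpb1c, Pilrb1, Trem1 and Trem3. They were taken by name from 20145 gene symbols with a probe on the array, and their 12 probes were found through the RefSeq accession of each among 55681 probes. The set was chosen by measured values: it was picked because Sirpb1b and Trem3 changed strongly in these data, and the comparison in which they did is not on record.

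Gene expression was measured on 8 1-colour Agilent arrays in LSK cells (lineage-negative, Sca1-positive, cKit-positive), which hold stem cells and multipotent progenitors, and in GMP cells (lineage-negative, Sca1-negative, cKit-positive, CD34-positive, CD16/32-positive), the granulocyte-macrophage progenitors. Both populations were sorted from the marrow of female C57Bl/6J mice of 12 weeks that were either wild type or lacked ACKR1, an atypical chemokine receptor, which takes up chemokines but does not couple to G proteins. The deficient line had been backcrossed and the wild-type animals were littermates. Each of the 4 groups held 2 arrays. The labels do not say that the arrays of a group came from separate mice, and p-values therefore reflect the spread of these samples alone, part of which may be technical.

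Levels are on a log2 scale relative to the array's own 75th percentile of signal and are given for replicates 1 and 2 in that order, and an SE comes from a limma fit over all arrays. "Well above background" is the scanner software's own call for a spot. A probe's level is read only against the same probe on other arrays. Ackr1 itself did not tell the genotypes apart: its levels were −0.66 and −1.05 in wild-type LSK, against −0.70 and −0.85 in deficient LSK. In GMP they were −0.50 and −0.45 in wild-type and −0.07 and −0.16 in deficient cells. Where its probe lies relative to the deleted part is not given in the sources used here, so it does not check the labels, and "deficient" below means labelled deficient. Deficient LSK replicate 2 was a weak array, with 34.3% of spots well above background against 62.5% to 73.1% on the others. Its lowest level of a probe well above background was −1.44, against −6.69 to −4.81 elsewhere, and its lowest level of any probe was −3.49, so a low value on it has only an upper bound. Among the genes of the sort, Fcgr3 (CD16) had a mean of 2.79 ± 0.88 (SD, n = 2) in wild-type GMP and −3.15 ± 1.02 in wild-type LSK. Ly6a (Sca1) overlapped between them, with 1.83 and 3.79 in LSK and 2.83 and 3.11 in GMP. In deficient cells Fcgr3 was at 0.72 ± 2.09 in GMP and −1.85 ± 1.57 in LSK. There Ly6a was at 1.03 ± 1.70 in GMP and −0.35 ± 1.01 in LSK, the lower mean in the population sorted as Sca1-positive. Only 1 deficient LSK array had either gene well above background.

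The receptor genes fell into those that were higher in deficient than in wild-type cells of both populations (Sirpb1a, Sirpb1b, Sirpb1c, Pirb and Pilra), those whose GMP arrays all exceeded the LSK arrays in both genotypes (Trem3 and Sirpa), and Pilrb1 and Trem1, which did neither. Since the members were picked for strong changes, with Sirpb1b apart between genotypes and Trem3 between populations in wild type, and the comparison behind the choice not on record, all comparisons of the members over these arrays are given as descriptions, with no p-value. Counts of members that limma called are set beside the share of all features called, and nothing is read from them.

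**Figure D1:**
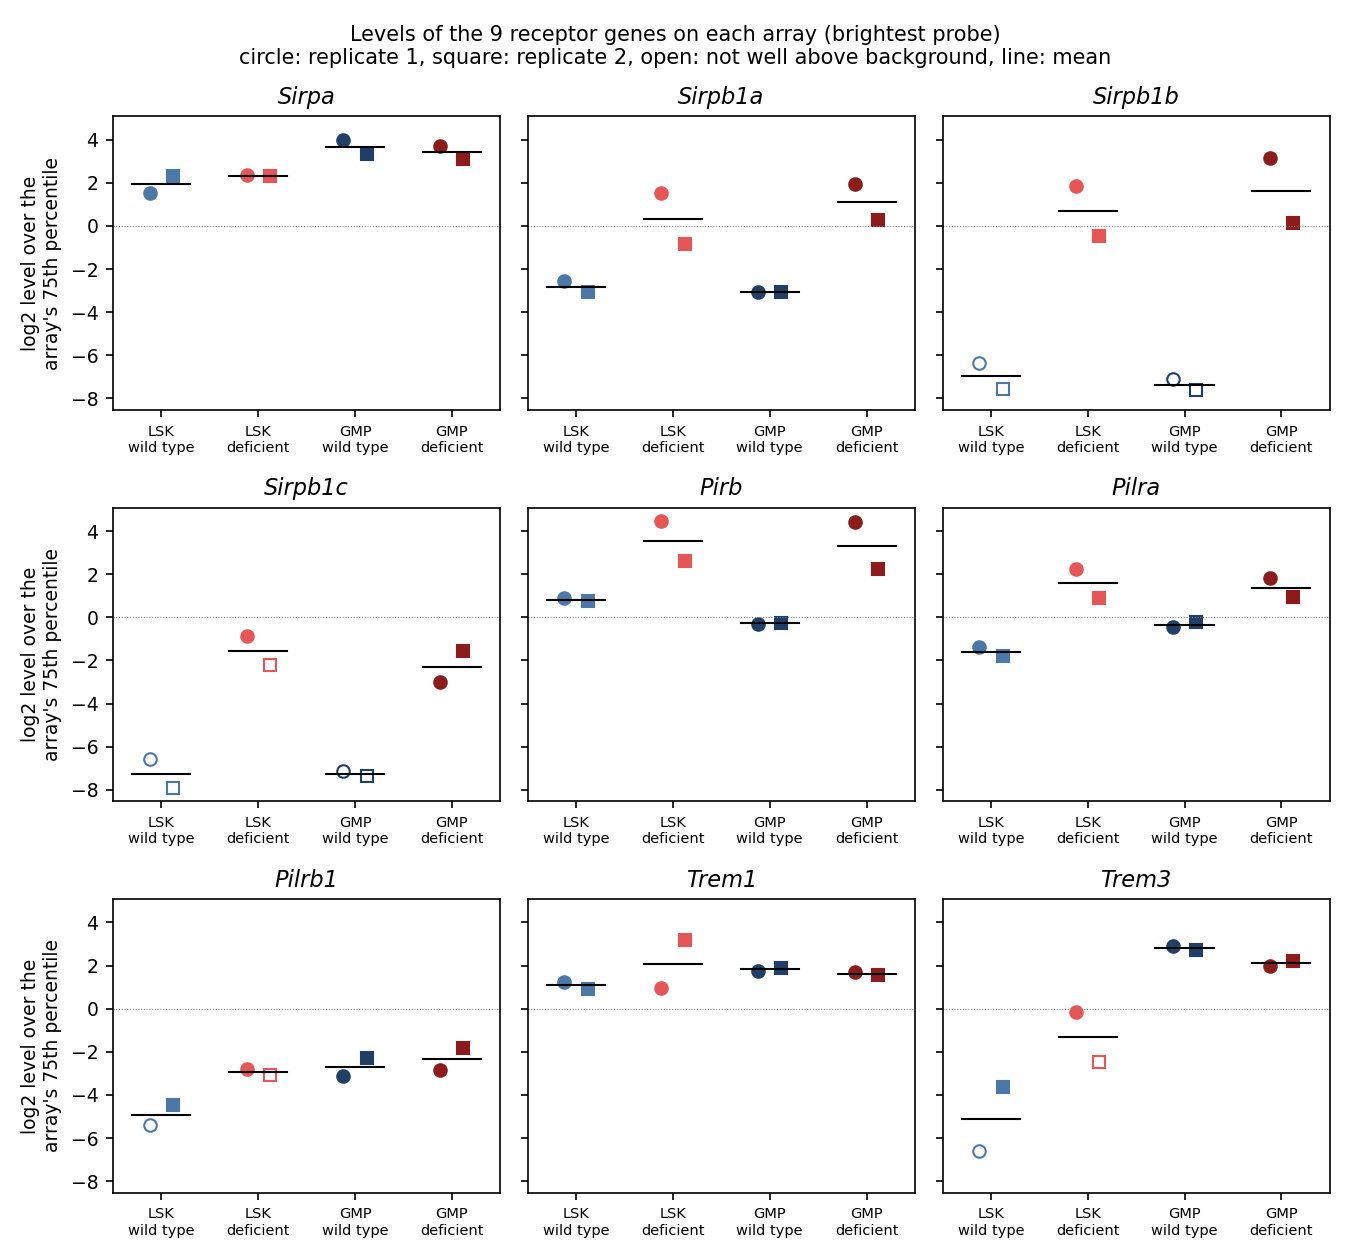
Levels of the 9 receptor genes on each of the 8 arrays, as log2 signal over the array's 75th percentile (y axis), by population and genotype (x axis), with replicate 1 as a circle, replicate 2 as a square, the mean as a line and open symbols where the probe was not well above background. Sirpb1b is near −7 in the wild-type groups (means −6.97 and −7.37) and above 0 on 3 of 4 deficient arrays, and Trem3 is above 1.9 on all GMP arrays and below 0 on all LSK arrays.

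Sirpb1a, Sirpb1b and Sirpb1c encode signal-regulatory proteins of the beta type, activating receptors that pair with DAP12. In the order of genes of the RefSeq table they are neighbours on chromosome 3. Their promoters, shown because these genes moved together, are near copies of each other: in the table's windows of 300 bases (250 before to 50 after the annotated start, build GRCm38.p6, minus strand), Sirpb1b and Sirpb1c were 98.07% identical over 259 aligned positions, Sirpb1a and Sirpb1b 95.65% over 207, and Sirpb1a and Sirpb1c 95.56% over 248. The windows are chr3:15426378-15426677 for Sirpb1a, chr3:15575016-15575315 for Sirpb1b and chr3:15848438-15848737 for Sirpb1c. Capitals mark a match on the opposite strand to GGAAGT, the core that ETS factors such as PU.1 recognise. It lies at the same aligned place in all 3 windows, at −56, 37 and −4 from the annotated start.
Sirpb1a: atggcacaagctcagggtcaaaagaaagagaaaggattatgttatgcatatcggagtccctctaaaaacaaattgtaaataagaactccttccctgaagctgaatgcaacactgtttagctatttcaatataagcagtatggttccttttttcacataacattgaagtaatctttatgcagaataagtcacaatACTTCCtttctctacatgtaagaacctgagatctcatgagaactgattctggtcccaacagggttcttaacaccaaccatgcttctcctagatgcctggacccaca
Sirpb1b: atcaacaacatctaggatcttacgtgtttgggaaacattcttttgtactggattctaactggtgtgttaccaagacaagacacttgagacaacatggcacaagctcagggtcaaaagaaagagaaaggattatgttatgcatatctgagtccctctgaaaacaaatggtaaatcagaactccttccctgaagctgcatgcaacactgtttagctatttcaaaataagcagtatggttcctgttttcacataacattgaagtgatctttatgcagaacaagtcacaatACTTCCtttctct
Sirpb1c: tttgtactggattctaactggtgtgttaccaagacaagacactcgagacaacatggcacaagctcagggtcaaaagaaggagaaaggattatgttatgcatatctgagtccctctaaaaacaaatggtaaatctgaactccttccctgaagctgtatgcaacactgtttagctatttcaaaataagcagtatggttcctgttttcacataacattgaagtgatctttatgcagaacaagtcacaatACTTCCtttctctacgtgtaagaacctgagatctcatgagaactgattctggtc

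Sirpb1b had the widest genotype difference of the 9 genes. Its levels were −6.37 and −7.57 in wild-type LSK, against 1.84 and −0.48 in deficient LSK. GMP gave −7.11 and −7.62 in wild type and 3.14 and 0.13 in deficient cells. The groups did not overlap in either population, and the deficient arrays were the more spread, with replicate 1 above replicate 2 in both. The difference was 7.65 (SE 1.10, log2) in LSK and 9.0 (SE 1.10) in GMP. No wild-type array had the probe well above background. Wild-type values were therefore raised to their array's lowest level of a probe well above background, where they lay below it. The signal was then 97.7-fold higher in deficient LSK and 187-fold higher in deficient GMP. These folds are not strict lower bounds, since probes above that level can also fail the call. On wild-type LSK replicate 1, Fgr at −4.49 was not well above background, while the lowest level with the call was −5.17.

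Sirpb1c was likewise higher in deficient cells of both populations. Its levels were −6.59 and −7.92 in wild-type LSK, against −0.88 and −2.22 in deficient LSK, where the second array was not well above background. GMP gave −7.11 and −7.37 in wild type and −3.01 and −1.57 in deficient cells. Again the genotypes did not overlap, and no wild-type array had the probe well above background. The differences were 5.71 (SE 0.81) in LSK and 4.95 (SE 0.81) in GMP, the latter 12.3-fold with wild-type values raised as for Sirpb1b. No such fold is given in LSK, where the second deficient value is itself only an upper bound. With every value raised to the weak array's lowest level well above background, the difference was 0.28 in LSK and 0 in GMP.

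Sirpb1a was well above background on all arrays at its brighter probe, so no value was raised for its folds. Levels there were −2.57 and −3.06 in wild-type LSK, against 1.51 and −0.85 in deficient LSK. The GMP arrays read −3.05 and −3.07 in wild-type and 1.92 and 0.28 in deficient cells. The genotypes did not overlap in either population, and deficient replicate 1 was again the higher. The differences were 3.14 (SE 0.90), or 8.83-fold, in LSK and 4.17 (SE 0.90), or 17.9-fold, in GMP. The dimmer probe of the gene gave 3.62 (SE 0.82) and 3.99 (SE 0.82) in LSK and GMP, with no overlap of the groups. The probe sequences are not used here, so it is uncertain how far the probes of these near-identical genes tell the copies apart.

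Further genes of the same cluster were on the array. Gm9733 and Gm5150, predicted genes next to these in the RefSeq order, were looked up after the members' values had been seen. Gm5150 followed the Sirpb1 genes, with means of −6.31 in wild-type and −2.49 in deficient LSK. Its means in GMP were −5.69 and −2.89, and no wild-type array had it well above background. In deficient LSK only 1 array had it well above background. No level on deficient LSK replicate 2 could lie below −3.49, so its place above the wild-type mean was fixed. Gm9733 did not follow the Sirpb1 genes. Its means were −6.72 in wild-type LSK, −1.29 in deficient LSK, −0.58 in wild-type GMP and −0.66 in deficient GMP. It was thus low in wild-type LSK alone. No wild-type LSK array had it well above background. With those values raised as for Sirpb1b, it was 24.9-fold higher in deficient LSK. The limma fit, on values not raised, gave an adjusted p of 0.0195. In GMP its genotype difference was −0.08 (SE 0.68, adjusted p = 1.00). Over the 5 chromosomes that carry the receptor genes, 16 of the 20 protein-coding genes nearest to them (2 on each side of each) were tested. Of these, 1 was called higher in deficient LSK (Gm9733) and 0 in deficient GMP. In GMP 4 were at an unadjusted p under 0.05 in the limma fit (4.58% of all features). The median difference was 0.38 in LSK and 0.04 in GMP. In the average of both populations 2 were called higher: Gm5150 (adjusted p = 0.0428), whose call ended without any 1 of the 8 arrays, and A530064D06Rik, a neighbour of the Trem genes. A530064D06Rik was higher by 4.29 (SE 0.77) in LSK, 3.71 (SE 0.77) in GMP and 4.0 (SE 0.55, adjusted p = 0.0145) in the average. It was not called there without wild-type LSK replicate 1 or 2, wild-type GMP replicate 2 or deficient GMP replicate 1, and 1 array of each LSK group had it well above background.

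Sirpa encodes the inhibitory receptor that binds CD47, the "do not eat me" signal of healthy cells. Its levels were 1.53 and 2.32 in wild-type LSK, against 2.35 and 2.32 in deficient LSK. In GMP they were 3.99 and 3.33 in wild-type and 3.72 and 3.11 in deficient cells. The genotypes were close in each population, and all GMP arrays lay above all LSK arrays. The genotype difference was 0.41 (SE 0.66) in LSK and −0.24 (SE 0.66) in GMP, whose arrays overlapped. GMP exceeded LSK by 1.74 (SE 0.66) in wild type.

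Pirb encodes the inhibitory paired immunoglobulin-like receptor B, which binds MHC class I molecules and is found on B cells and myeloid cells. Levels were 0.88 and 0.74 in wild-type LSK, against 4.46 and 2.59 in deficient LSK. GMP arrays had −0.31 and −0.26 in wild-type and 4.42 and 2.22 in deficient cells. Deficient arrays were all above wild-type arrays, and replicate 1 was the higher in both deficient groups. The difference was 2.72 (SE 0.90), or 6.58-fold, in LSK and 3.6 (SE 0.90), or 12.2-fold, in GMP. In wild-type cells GMP minus LSK was −1.09 (SE 0.90) for Pirb, the opposite sign to Sirpa. Lilra6, from a list of other paired or related receptors, had means of −0.42 ± 0.02 (SD, n = 2) and 3.23 ± 0.05 in wild-type and deficient LSK, and −1.02 ± 0.44 and 1.96 ± 0.70 in GMP.

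Pilra and Pilrb1 encode the inhibitory and the activating paired immunoglobulin-like type 2 receptors, and they neighbour each other and Pilrb2 on chromosome 5. Their promoters, shown because the copies differ little while the genes' levels did not run in parallel, were 98.37% identical over 246 aligned positions. The windows are chr5:137836229-137836528 for Pilra and chr5:137858000-137858299 for Pilrb1 (RefSeq, GRCm38.p6, minus strand, 300 bases each). Capitals mark GGAAGT on the gene's strand, at the same aligned place, 3 and −51 from the annotated starts.
Pilra: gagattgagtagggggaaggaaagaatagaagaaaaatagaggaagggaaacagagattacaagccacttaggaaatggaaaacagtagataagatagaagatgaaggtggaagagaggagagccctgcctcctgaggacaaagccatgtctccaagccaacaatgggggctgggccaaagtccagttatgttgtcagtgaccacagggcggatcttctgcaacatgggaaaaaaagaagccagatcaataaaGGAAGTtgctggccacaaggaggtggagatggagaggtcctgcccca
Pilrb1: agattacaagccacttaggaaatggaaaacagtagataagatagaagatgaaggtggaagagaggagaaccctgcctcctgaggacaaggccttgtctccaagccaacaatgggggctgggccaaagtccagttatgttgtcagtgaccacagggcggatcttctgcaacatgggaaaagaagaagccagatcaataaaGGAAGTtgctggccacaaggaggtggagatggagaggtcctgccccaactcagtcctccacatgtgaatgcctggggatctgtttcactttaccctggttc

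GGAAGT, on either strand, was present in all 7 member promoters that the table holds, against 23.8% of 32851 promoters of the same length. The longer GAGGAAGT was in that of Pirb alone (3.2% of all promoters), and TTNNGNAA, a form of the C/EBP site, in 6 of 7 (40.7% of all). The Sirpb1 and the Pilr promoters are copies, so the 7 matches lie at 4 unrelated places, and a match of letters is not a bound site.

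At the brightest probe of Pilra, levels were −1.40 and −1.80 in wild-type LSK, against 2.24 and 0.90 in deficient LSK. For GMP the values were −0.47 and −0.22 in wild-type and 1.81 and 0.92 in deficient cells. All deficient values were above all wild-type values. The difference was 3.17 (SE 0.72), or 8.99-fold, in LSK and 1.71 (SE 0.72), or 3.27-fold, in GMP. The other probes were higher in deficient LSK by 4.88 (SE 0.73) and 5.0 (SE 0.91), but they parted in GMP: one gave 1.16 (SE 0.73) with overlapping arrays and the other 3.81 (SE 0.91) with none. In GMP the size of the difference ran with the probe, and its sign was the same at all 3.

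Pilrb1 was dim. Its levels were −5.40 and −4.48 in wild-type LSK, against −2.81 and −3.09 in deficient LSK. In GMP they were −3.13 and −2.26 in wild-type and −2.86 and −1.82 in deficient cells. In each LSK group only 1 array had the probe well above background, so the genotype difference there, 2.0 (SE 0.71), rests on levels at the floor, and in GMP it was 0.36 (SE 0.71) with overlapping arrays. Pilrb2, the next gene, had a difference of 2.82 (SE 0.79, adjusted p = 0.448 in the limma fit) in LSK and 0.75 (SE 0.79, adjusted p = 1.00) in GMP. In each LSK group only 1 array had Pilrb2 well above background, so its LSK difference also rests on levels at the floor. Whether the Pilr probes tell the near-identical copies apart is uncertain, as for Sirpb1.

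Trem1 and Trem3 encode DAP12-coupled receptors that amplify inflammatory responses of neutrophils and monocytes, and they lie side by side on chromosome 17. The levels of Trem3 were −6.59 and −3.64 in wild-type LSK, of which the first was not well above background, and 2.92 and 2.74 in wild-type GMP. In deficient mice they were −0.16 and −2.46 in LSK, the second not well above background, and 1.97 and 2.22 in GMP. All GMP arrays were far above all LSK arrays, and the LSK replicates were far apart in both genotypes. GMP exceeded LSK by 7.94 (SE 1.05) in wild type. Between genotypes Trem3 was higher by 3.81 (SE 1.05) in deficient LSK and differed by −0.73 (SE 1.05) in GMP, without overlap in GMP. In LSK replicate 1 carried the difference: −2.46 on the weak array is only an upper bound, and no level on that array could lie below −3.49, which is above both wild-type values. With every value raised to that array's lowest level well above background, the difference in LSK was 0.64.

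Trem1 varied little. Levels were 1.24 and 0.92 in wild-type LSK, against 0.94 and 3.19 in deficient LSK. The values in GMP were 1.75 and 1.90 in wild-type and 1.68 and 1.55 in deficient cells. The high value came from the weak array, and the LSK genotypes overlapped. The genotype difference was 0.99 (SE 0.80) in LSK and −0.21 (SE 0.80) in GMP. Neighbouring Treml4 and Treml2, of the same family, differed between genotypes by 0.39 (SE 0.64) and −1.21 (SE 0.75) in LSK and by −0.33 (SE 0.64) and −0.01 (SE 0.75) in GMP, and neither was called.

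**Figure D2:**
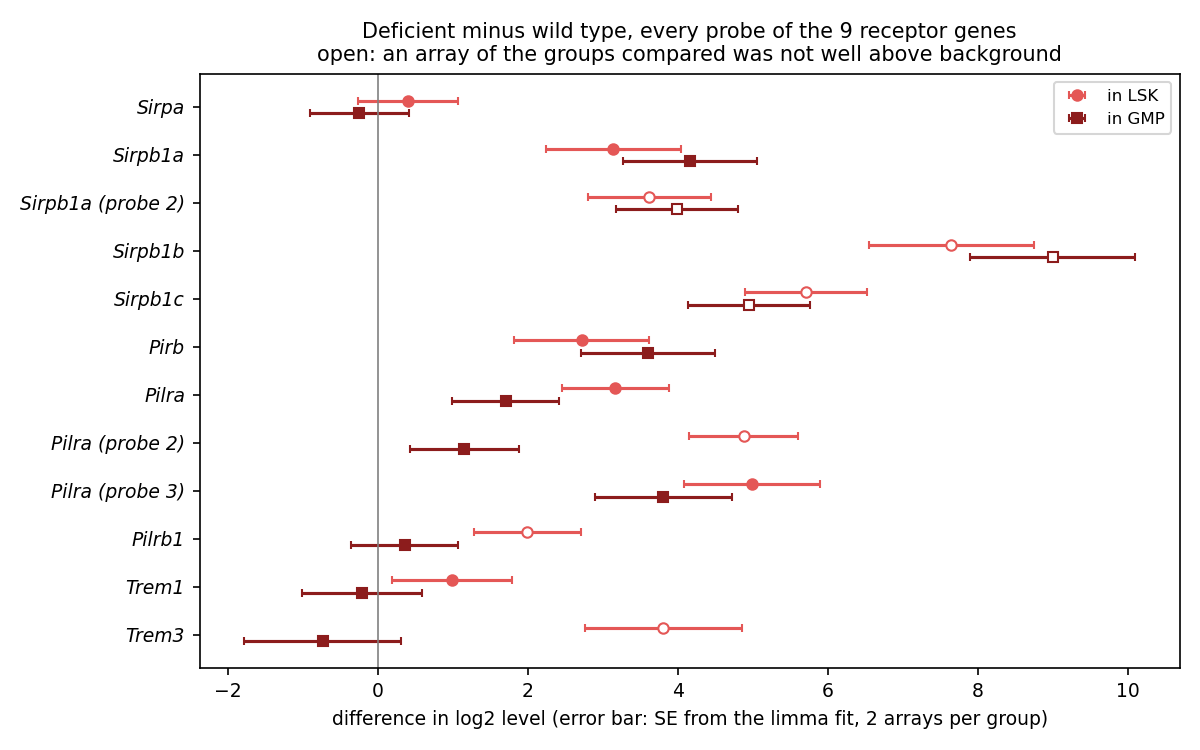
Deficient minus wild type in log2 level (x axis) for each of the 12 probes of the 9 receptor genes (y axis), in LSK (circles) and GMP (squares), with the SE of the limma fit as error bar and open symbols where an array of the groups compared was not well above background. Sirpb1b reaches 7.65 in LSK and 9.0 in GMP, whereas Sirpa, Trem1 and, in GMP, Pilrb1 and Trem3 lie within 1 of 0.

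Counted over the members, 9 of 9 differences in LSK and 6 of 9 in GMP were above 0. The deficient pair of arrays was wholly above the wild-type pair for 8 members in LSK (17.9% of 34442 features). For 3 of these, Sirpb1c, Pilrb1 and Trem3, replicate 2 was not well above background, and the lowest level of that weak array already exceeded their wild-type values, so its place was fixed. For Sirpa the LSK pairs all but touched, with 2.3159 as the lower deficient and 2.3151 as the higher wild-type value. In GMP the deficient pair was wholly above for 5 members (20.4%) and below for 2 (18.7%). The median difference of the members was 3.14 in LSK and 1.71 in GMP, against 0.24 and 0.17 over all features. Adjusted p under 0.05 in the limma fit was reached by 2 members in LSK (0.165% of features), Sirpb1b and Sirpb1c, by 1 in GMP (0.105%), Sirpb1b, and by 3 in the average of both populations (0.438% called higher), the Sirpb1 genes. The choice of the members may have used these contrasts, so nothing is read from the counts. They also moved with single arrays: 0 members were called in LSK without any of wild-type replicate 1, wild-type replicate 2 or deficient replicate 2, and 0 in GMP without any of deficient LSK replicate 1 or 2, wild-type GMP replicate 2 or deficient GMP replicate 1. Over all features the counts called in LSK were 2, 3 and 0 without wild-type replicate 1, wild-type replicate 2 and deficient replicate 2, and 3007 without deficient replicate 1, against 57 with all arrays. In GMP, 36 were called with all arrays and 2 without deficient replicate 1.

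Markers of other cells differed between genotypes as well, although the lineage-negative sort is meant to remove mature cells. Of 11 mature neutrophil markers tested, all 11 were above 0 in both populations. The log2 of their summed level was 1.76 to 3.41 in wild-type LSK, 10.4 to 11.7 in deficient LSK, 3.14 to 4.11 in wild-type GMP and 10.3 to 11.7 in deficient GMP, with 6 to 9 of them well above background on wild-type and 10 to 11 on deficient arrays. In the limma fit, 8 were called higher in LSK and 6 in GMP. Without deficient LSK replicate 2 these counts were 0 and 4. Erythroid markers (12 tested) summed to 4.01 to 5.79, 10.6 to 13.1, 2.77 to 3.78 and 10.6 to 11.6 in the same order of groups. Monocyte and macrophage markers (9 tested) summed to 3.32 to 3.71, 3.82 to 4.83, 7.73 to 7.96 and 7.47 to 8.93, and so parted populations more than genotypes. Among the defining markers of neutrophils, Ly6g has no probe in the table used here. The part of these cells in the levels of the Sirpb1 genes, Pirb and Pilra was not tested, and in such bulk samples more cells of a type and more RNA per cell cannot be told apart.

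**Figure D3:**
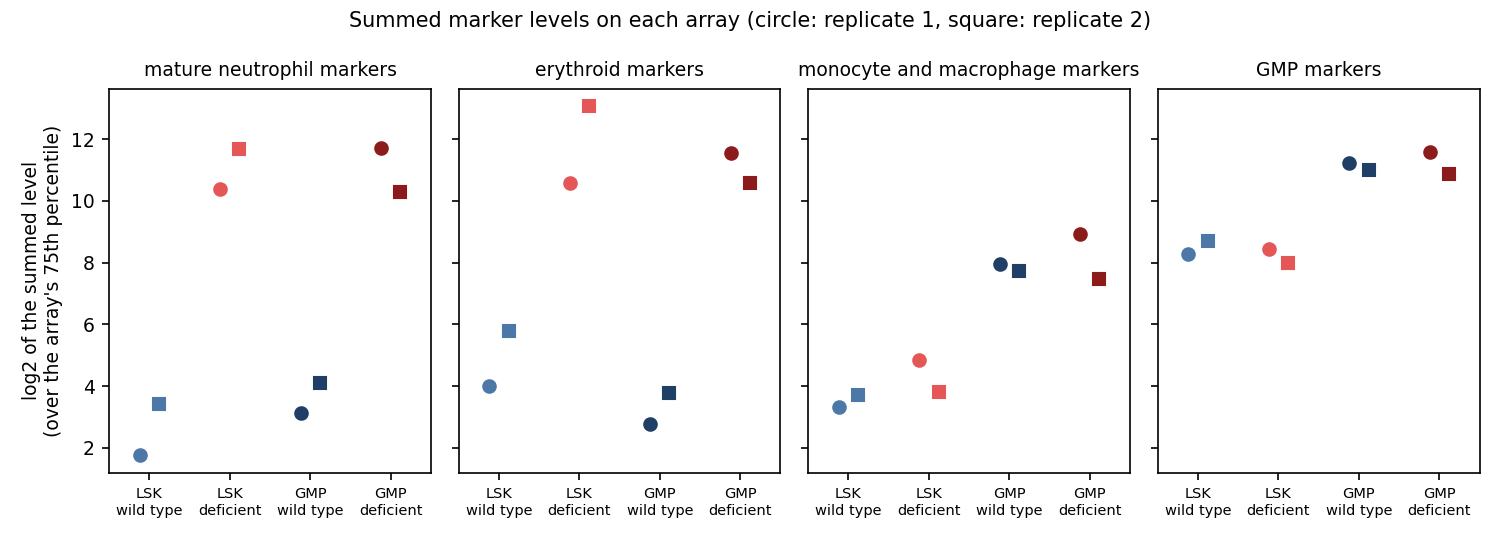
Log2 of the summed level of neutrophil, erythroid, monocyte and GMP markers (y axis) on each of the 8 arrays, by population and genotype (x axis), with replicate 1 as a circle and replicate 2 as a square. Neutrophil and erythroid sums are above 10 on all deficient arrays and below 6 on all wild-type arrays, while the GMP markers part the populations.

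In deficient mice none of the 9 members was called between GMP and LSK by limma, as for all 34442 features (0% called). Trem3 was higher in GMP by 3.40 (SE 1.05), with both GMP arrays above both LSK arrays. Leaving out deficient LSK replicate 1, so that only the weak array stood for that group, gave 4.55 for Trem3, whose level on that array is an upper bound. The spread then came from the other groups, so no call is read from that fit. Sirpa was higher by 1.09 (SE 0.66), likewise without overlap. The other 7 members lay between −0.74 and 0.96 at their brightest probes, with overlapping arrays. Both GMP arrays lay above both LSK arrays for 2 of 9 members (16.0% of features). These values share arrays with the genotype differences, and the corresponding values in wild type were 7.94 for Trem3 and 1.74 for Sirpa. The contrast of the genotype differences between the populations called 0 members and 0% of features by limma, with 2.42% of features and 1 member, Trem3, at an unadjusted p under 0.05.

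**Figure D4:**
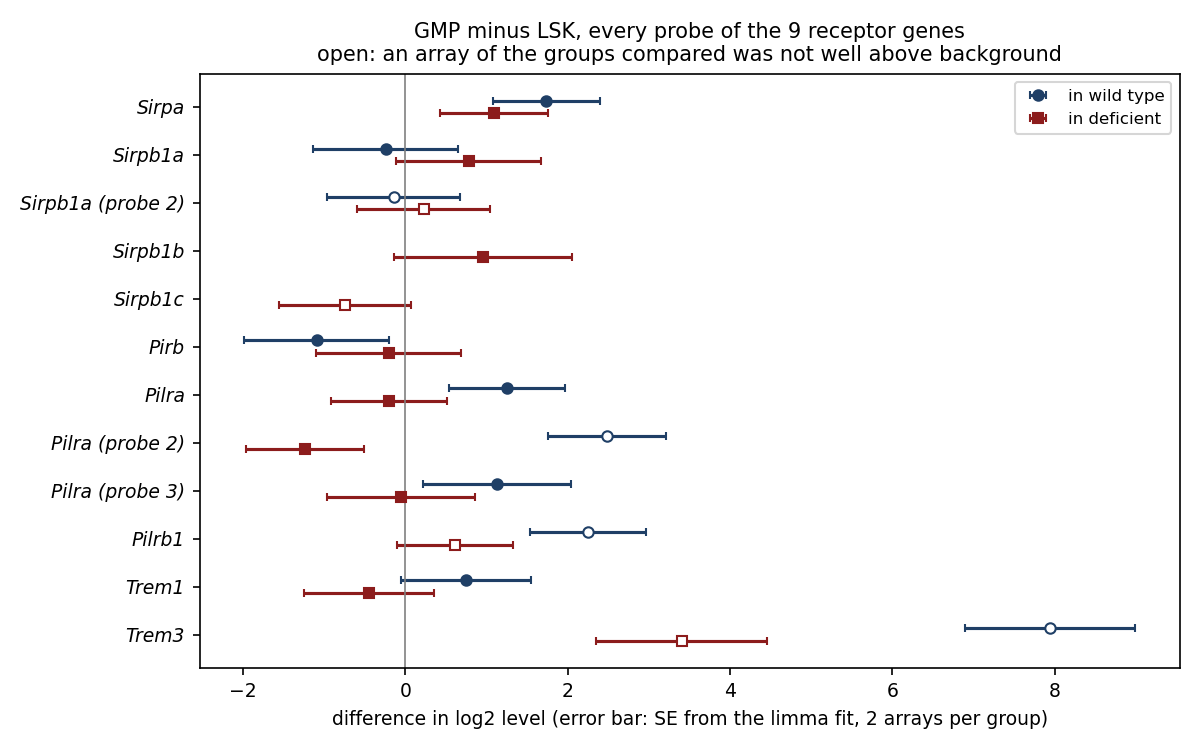
GMP minus LSK in log2 level (x axis) for each of the 12 probes of the 9 receptor genes (y axis), in wild-type (circles) and deficient (squares) mice, with the SE of the limma fit as error bar and open symbols where an array of the groups compared was not well above background. Sirpb1b and Sirpb1c, with no wild-type array well above background, are left out in wild type, and Trem3 stands at 7.94 in wild type and 3.40 in deficient mice.

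In wild-type mice GMP exceeded LSK without overlap for 5 members (25.3% of features), namely Sirpa, Pilra, Pilrb1, Trem1 and Trem3, and Pirb was lower without overlap (20.5%). The median member difference was 0.74, against −0.04 over all features. Trem3 alone was called higher (0.383% of features), which its choice may have fixed, so nothing is read from the call. Trem3 was not called without wild-type LSK replicate 1. Sirpb1b and Sirpb1c had no wild-type array well above background, so their order between wild-type populations is not given.

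Signalling partners of the receptors were also compared between genotypes. Of all features, 0.165% were called higher in LSK, 0.105% in GMP and 0.438% in the average, so nothing is read from the counts of short lists. Of 16 adaptors and kinases tested, Fgr, a Src-family kinase of myeloid cells, was the one called. It was higher in deficient GMP (adjusted p = 0.0451 in the limma fit) and in the average (adjusted p = 0.00567). No wild-type GMP array had it well above background, and the fold in GMP was 31.9 with wild-type values raised as for Sirpb1b. Leaving out any 1 of the 8 arrays ended the call in GMP and none ended that in the average. The list's median difference was −0.11 in LSK and −0.04 in GMP. Tyrobp, the DAP12 adaptor on which the Sirpb1, Pilrb1 and Trem receptors depend, had means of 2.93 ± 0.88 (SD, n = 2) and 2.54 ± 1.03 in wild-type and deficient LSK and 6.70 ± 0.08 and 5.62 ± 1.04 in GMP, a genotype difference of −0.39 (SE 0.82) and −1.09 (SE 0.82). Fcer1g differed by 0.39 (SE 0.71) and −1.04 (SE 0.71), and Hcst, the DAP10 adaptor, by −0.19 (SE 0.68) and 0.73 (SE 0.68), none of them called.

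Between populations of wild-type mice, Fcer1g rose in GMP by 3.66 (SE 0.71, adjusted p = 0.0369 in the limma fit), and Blnk, an adaptor of B cell receptor signalling, fell by 4.45 (SE 0.91, adjusted p = 0.0487). Tyrobp was higher by 3.77 (SE 0.82, adjusted p = 0.0615), short of the threshold. These calls did not hold when a wild-type array was left out, although the differences kept their sign. Over the fits with 1 array left out they were 3.18 to 4.14 for Fcer1g and −4.79 to −4.10 for Blnk. A group then holds 1 array, so a lost call does not show that a single array carried the difference. Blnk was still called in 2 and Fcer1g in 4 of 8 fits that each left out 1 array, neither of them without wild-type LSK replicate 1 or 2 or wild-type GMP replicate 1 or 2, and Blnk not without either deficient LSK array.

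On the inhibitory side, 0 of 10 phosphatases and adaptors were called by limma in any of the comparisons. In each, 1 or 2 were at an unadjusted p under 0.05 (2.42% to 16.3% of all features). Ptpn6 (SHP-1) had means of 3.70 ± 0.73 and 2.04 ± 1.42 (SD, n = 2) in wild-type and deficient LSK and 4.82 ± 0.21 and 2.75 ± 1.74 in GMP. Its genotype difference was −1.66 (SE 0.97) in LSK and −2.06 (SE 0.97) in GMP, with an adjusted p of 0.579 and 0.989. Ptpn11 (SHP-2) differed by −0.66 (SE 0.92) and 0.78 (SE 0.92).

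Among 12 ligands tested, Cd177, a neutrophil surface protein that is also among the neutrophil markers above, rose in the average (adjusted p = 0.0249 in the limma fit). No wild-type LSK array had Cd177 well above background. With those values raised as for Sirpb1b, it was 45.5-fold higher in deficient LSK. In deficient GMP it was higher by 3.70 (SE 1.00), and neither difference was called alone. The call in the average ended without any of the 4 LSK arrays or wild-type GMP replicate 2. Cd47, the ligand of Sirpa, had a level of 5.22 ± 0.25 (SD, n = 2) in wild-type and 4.35 ± 0.76 in deficient LSK and of 5.97 ± 0.13 and 5.67 ± 0.30 in GMP, and it was not called. Pglyrp1, a ligand of Trem1, differed between genotypes by 0.90 (SE 1.02) in LSK and −1.22 (SE 1.02) in GMP. Npdc1, reported as a ligand of Pilra, fell by 4.60 (SE 0.63, adjusted p = 0.0098) from LSK to GMP in wild type, and was not called without any 1 of the 4 wild-type arrays.

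Other paired or related myeloid receptors (41 tested of 51 listed) had a median genotype difference of 1.09 in LSK and 0.77 in GMP, against 0.24 and 0.17 over all features. Of these, 32 were above 0 in LSK and 29 in GMP, yet 0 were called in either. At an unadjusted p under 0.05 in the limma fit were 16 in LSK (8.81% of all features) and 9 in GMP (4.58%). Lilra6 alone was called in the average, by 3.32 (SE 0.47, adjusted p = 0.0169 in the limma fit). The call of Lilra6 held in 2 of 8 fits with 1 array left out, those without deficient LSK replicate 1 or deficient GMP replicate 2. Trem2, a DAP12-coupled receptor of macrophages, rose from LSK to GMP in wild type by 6.80 (SE 0.77, adjusted p = 0.00563), with 1 wild-type LSK array well above background, and so did Fcgr3, by 5.94 (SE 1.13, adjusted p = 0.0336). Neither was called without wild-type LSK replicate 1 or 2, nor Fcgr3 without wild-type GMP replicate 1 or 2. Trem2 had the group order of Trem3: means of −5.16 and −1.83 in wild-type and deficient LSK, and 1.64 and 1.43 in GMP. In deficient LSK, too, only 1 array had Trem2 well above background. No level on deficient LSK replicate 2 could lie below −3.49, so its place above the wild-type mean was fixed.

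Of 11 transcription factors of granulocytes and monocytes, Cebpe, which drives late granulocyte maturation, was called. It rose in deficient LSK by 4.94 (SE 0.63, adjusted p = 0.0218 in the limma fit), from −1.21 ± 0.26 (SD, n = 2) to 3.73 ± 0.29, and differed by −0.16 (SE 0.63) in GMP. From LSK to GMP in wild type it rose by 6.08 (SE 0.63, adjusted p = 0.00486). Cebpe, like Gm9733, was not called in either comparison without wild-type LSK replicate 1 or 2, nor in LSK without deficient LSK replicate 2. Without deficient LSK replicate 2, 0 genes of the lists of adaptors and kinases, phosphatases, ligands, other receptors and transcription factors were called between genotypes in LSK or in GMP, and 1 adaptor or kinase gene in the average.

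Likeness to the 2 genes that led the choice was taken as Pearson's r over the 8 arrays, against 15855 other symbols, as a description: the arrays share their population and genotype differences. Sirpb1b was not well above background on any wild-type array, nor Trem3 on 1 array of each LSK group, so r rests in part on levels at the floor. Cstdc4 (r = 0.995), Pla2g7 (0.993), Itgb2l (0.990) and Fpr1 (0.988) were most like Sirpb1b. Fpr1 is the formyl peptide receptor of neutrophils and Pla2g7 an acetylhydrolase of platelet-activating factor. Of the members, Sirpb1a ranked 11 (r = 0.983), Pirb 49, Sirpb1c 72 and Pilra 97, while Pilrb1 ranked 2555, Trem3 5489, Trem1 6592 and Sirpa 7369.

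Trem3 was most like Igsf6 (r = 0.994), Serpinb10 (0.983), Arl5c (0.980), Hdc (0.978) and Slc2a6 (0.977). Hdc is histidine decarboxylase, which makes histamine. Sirpa ranked 54 (r = 0.917) and Pilrb1 111 (r = 0.878), and the Sirpb1 genes ranked 5860 to 6689. Trem1 ranked 7323 and Pirb 8331. Spearman's rank correlation with Trem3 parted these genes less: 0.93 for Sirpa, 0.595 for Pilrb1, 0.5 for Trem1 and −0.36 for Pirb.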

How the data were processed

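Per the labels, RNA of sorted cells was extracted with Trizol, amplified with a low-input kit and labelled with Cy3. Per the file headers, scanning used Agilent Feature Extraction 10.7.3.1 and a design annotated on mm9. The processed signal is an intensity on a linear scale, background-corrected per the file headers, and the median foreground and background signals used for normexp are uncorrected intensities. A table deposited by the authors holds log2 values. They matched the scanner values (r 0.99969 to 0.99997) once these were scaled to each array's 75th percentile and each probe was centred by its median. Its column medians were 1.24 in deficient LSK replicate 2 and −0.26 to 0.31 elsewhere. The sources used here give no further steps of the authors.

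From the log2 processed signal, the array's 75th percentile over non-control spots was subtracted. Outlier spots (104 to 139 per array) were left out, none was saturated, and probes with several spots were averaged. A probe passed if some group had it well above background on each of its 2 arrays (39098 of 55681, all 12 member probes among them). Accessions were matched to RefSeq symbols (GRCm38.p6 table, used for names and gene order) for 26582 probes. The brightest kept probe stood for a gene, and each probe without a symbol for itself (34442 features). limma 3.58.1 in R 4.3.3 fitted 4 group means (4 residual and 5.63 prior degrees of freedom) with Benjamini-Hochberg adjustment over all features, called at 0.05. Promoters came from RefSeq (7 of 9 members, all but Sirpa and Trem3) and were aligned with Biopython 1.88. Figures were drawn with matplotlib 3.10.9. The number of arrays limits the precision. Genotype cannot be told apart from the column on the single slide, 1 for deficient and 2 for wild type. Population and replicate cannot be told apart from the slide row. LSK arrays were in rows 1 (replicate 1) and 3 (replicate 2), and GMP arrays in rows 2 and 4 in the same order.

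The members, lists and tests were chosen with earlier results of these data known. Named genes were the members at every probe, 7 set partners, up to 3 called genes per list, comparison and direction, and the 5 genes most like Sirpb1b and Trem3, of which 1 is not reported here. Alternatives covered background correction, normalization, the deposited values, filters, the choice of probe, the arrays fitted, array weights, blocks and arrays left out. The fit was tested on simulated data.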

Additional observations from a re-analysis of the deposited data

Results flagged for a closer look

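Trem3 is listed because its genotype difference had opposite signs in the populations, 3.81 (SE 1.05) in LSK and −0.73 (SE 1.05) in GMP. The difference between them was −4.54 (SE 1.48) on the log2 scale. It was below 0 in 22 of 22 settings, from −6.02 to −1.37. Trem3 was picked for strong changes over these arrays, so no p-value is given. In LSK, 1 wild-type and 1 deficient array did not have the probe well above background. The deficient one is the weak array, whose lowest level of any probe, −3.49, lies above both wild-type values (−6.59 and −3.64), so the direction on that array was not measured and the LSK difference rests on deficient replicate 1.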

How the results depend on the processing

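The number of members called was the result that moved. In LSK (2 called) it was 0 with normexp, quantile normalization, the array median, no filter, the filter of 6 arrays (which leaves out Sirpb1b and Sirpb1c), array weights, slide row as a random block, both deviating arrays left out (deficient LSK replicate 2 and GMP replicate 1) and a common floor. In GMP (1 called) it was 0 with quantile normalization, the array median, no filter, the filter of 6 arrays, only the arrays compared, slide row, both deviating arrays left out and the common floor, and 2 with array weights. In the average (3 called) it was 1 with quantile normalization and the array median, and 0 with the filter of 6 arrays and the common floor. Between wild-type populations (1 called, Trem3) it was 0 with quantile normalization, the array median and the common floor, and 2 with array weights. Leaving out 1 array in turn gave 0 to 2 in LSK, 0 to 1 in GMP, 2 to 3 in the average, 0 to 1 between wild-type populations and 0 to 1 between deficient populations. The interaction had 0 in all settings. The cause was not tested.

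Replicate numbers are shared across groups, and the labels do not say whether they pair the samples. Deviations of same-numbered arrays correlated at −0.29 to 0.35. With 2 arrays per group these values cannot decide whether the samples were paired. With the replicate block, 2 members were called in LSK, 1 in GMP, 3 in the average, 1 between wild-type and 0 between deficient populations.

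The common floor, chosen after seeing the data, raises every value to −1.44. Sirpb1b then differed by 2.12 in LSK and 3.08 in GMP, and Sirpb1b was above 0 in all 22 settings with a value, up to 8.81 and 10.51. With it, Sirpb1c had a difference of 0.28 in LSK and of 0 in GMP, where all its values lie under the floor. Grouping unnamed probes by accession was also added after seeing the data. Signal over background on deficient LSK replicate 2 limits every low value of that group.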
